A study of Rattus norvegicus with 20 samples.

Results

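Rat germ cells were examined for the miR-15 family of microRNAs (miRNAs), which comes from a cluster that holds miR-15b and miR-16 and from a second cluster that holds miR-497 and miR-195. The members are the 5 rows of the arrays named rno-miR-15b-5p, rno-miR-15b-3p, rno-miR-16-5p, rno-miR-195-5p and rno-miR-497-5p, of 677 rat miRNAs in all. They were chosen by name, with earlier results of these data known. The arrays, 20 in number and 5 a group, measured total RNA from separated cells of male Sprague-Dawley rats gavaged on 6 days a week for 4 weeks. The groups were round spermatids of rats given cyclophosphamide at 6 mg/kg (CPA), round spermatids of rats given saline (SAL), CPA pachytene spermatocytes and SAL pachytene spermatocytes. Pachytene spermatocytes are germ cells in meiotic prophase, and round spermatids are their haploid, not yet elongated descendants. Cyclophosphamide is an alkylating anticancer drug. Cells were separated by size in a STA-PUT chamber at unit gravity, which enriches a stage and can leave other testis cells in the fraction. Arrays are named by the rat number of their label, and of the CPA pachytene arrays labelled 16, told apart by a year, 1 is named the earlier and the other the later rat 16. The labels do not say whether these arrays came from 1 animal or from 2. They were counted as 2 of the 5, and leaving out either of them changed no call of a member.

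A miRNA guides the silencing complex to messages that pair with its seed, bases 2 to 8 from its 5′ end, so miRNAs with the same seed share many predicted targets. In human and mouse cells this family is known to hold back the cell cycle through D-type and E-type cyclins, the checkpoint kinases CHEK1 and WEE1 and other cell cycle messages, and to lower the survival factor BCL2. A human relative of the miR-15b/16 cluster is lost in many chronic lymphocytic leukaemias. In mouse heart, miR-195 is known for rising after birth, when muscle cells leave the cell cycle.

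The mature sequences, from RefSeq (GRCr8), are shown because the seed, in capitals, defines the family and because its members differ in the rest of each molecule.
miR-15b-5p: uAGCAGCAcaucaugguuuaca
miR-16-5p: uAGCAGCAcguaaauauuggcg
miR-195-5p: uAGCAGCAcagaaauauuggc
miR-497-5p: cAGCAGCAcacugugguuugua
miR-322-5p: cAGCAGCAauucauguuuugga
miR-15b-3p: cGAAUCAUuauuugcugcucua
All 5 members were matched to the RefSeq table. Of 724 mature rat miRNAs in it, 5 carry the seed of miR-16-5p, namely the 4 members from the 5p arm and the X-linked miR-322-5p. The passenger strand miR-15b-3p has another seed, and it was counted as a member by its name. Across the clusters, miR-16-5p and miR-195-5p are identical at 19 of 21 positions counted from the 5′ end and differ by G10A and U11G, with the base of miR-16-5p written first. Within the clusters, miR-15b-5p matches miR-16-5p at 14 of 22 positions and miR-195-5p matches miR-497-5p at 12 of 21. The closest pair thus lies across the clusters. Other pairs across them range from 11 of 22 (miR-16-5p and miR-497-5p) to 16 of 22 (miR-15b-5p and miR-497-5p). The values below ran within the clusters.

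The hairpins of the second cluster are shown with the measured 5p arm in capitals, since this cluster carried the larger differences between cell types. Both lie on the plus strand of chromosome 10 in GRCr8, Mir497 at chr10:55450171-55450239 and Mir195 at chr10:55450495-55450581, with 255 bases between them.
Mir497: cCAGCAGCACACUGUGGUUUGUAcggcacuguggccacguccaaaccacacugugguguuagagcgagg
Mir195: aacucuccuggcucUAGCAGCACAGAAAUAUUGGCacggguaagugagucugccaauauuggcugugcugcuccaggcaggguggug
In that annotation they lie in no other gene, between Bcl6b and C10h17orf49. Mir15b and Mir16 lie on the plus strand of chromosome 2, 51 bases apart, inside Smc4, which encodes a subunit of condensin. The host gene was not measured on these arrays, which carry miRNA probes only.

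Values are log2 of the background-subtracted spot signal after each array was scaled to its 75th percentile over bright spots, with a floor of 3.61 on that scale. The miRNAs tested were the 217 that the scanner software detected on every array of some group, and all 5 members were among them. Differences come from 1 limma model over the 20 arrays, with adjusted p-values (Benjamini-Hochberg) over the 217 and a threshold of 0.05. Well above background were 18.9% to 31.4% of the spots of an array, no spot was saturated, and 181 to 281 miRNAs were detected per array. The germ cell miRNAs miR-34b-5p, miR-34c-5p and miR-449a-5p averaged at least 12.2 on the log2 scale in every group. The arrays lay on 3 slides, of which slides 1 and 2 held both cell types and both treatments and slide 3 held round spermatids only. A miRNA level set against total RNA cannot tell fewer cells of a type from less RNA per cell.

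Under the main scaling, miR-195-5p and miR-497-5p, the products of the second cluster, were more abundant in round spermatids than in pachytene spermatocytes. The excess was 2.87-fold to 3.70-fold over both treatments. Scaled to the spike-ins added at labelling, they differed by 0.31 and 0.49 (log2) in SAL rats, which was not called. miR-15b-5p and miR-16-5p were higher by 1.32-fold to 1.69-fold under the main scaling, with a sign that turned for some of these values under spike-in, quantile or no scaling. No member was called in CPA against SAL rats in either cell type.

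miR-195-5p had 7.94, 7.53, 8.03, 7.76 and 7.01 in CPA round spermatids of rats 14, 15, 16, 25 and 26, against 6.08, 6.24, 6.03, 5.87 and 6.03 in CPA pachytene spermatocytes of rats 7, 15, the earlier 16, the later 16 and 29. In SAL rats it had 7.83, 7.70, 7.54, 8.12 and 7.73 in round spermatids of rats 15, 16, 17, 25 and 28, against 6.20, 6.26, 6.34, 6.09 and 6.42 in pachytene spermatocytes of rats 13, 16, 25, 26 and 28. All round spermatid arrays lay above all pachytene arrays, and the CPA round spermatids of rat 26 were the lowest of the round spermatids. The difference between round spermatids and pachytene spermatocytes was 1.60 ± 0.15 (log2, SE), or 3.04-fold, in CPA rats and 1.52 ± 0.15, or 2.87-fold, in SAL rats. The adjusted p of limma was 1.39e-07 in CPA rats and 2.36e-07 in SAL rats.

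The neighbour miR-497-5p had 7.81, 7.26, 7.88, 7.62 and 6.81 in CPA round spermatids, against 5.66, 5.74, 5.63, 5.29 and 5.63 in CPA pachytene spermatocytes, with the rats in the same order. For SAL rats the values were 7.58, 7.23, 7.36, 7.92 and 7.65 in round spermatids, against 5.78, 5.77, 6.08, 5.58 and 6.01 in pachytene spermatocytes. Here too the cell types did not overlap, and rat 26 was again the lowest of the round spermatids. The difference was 1.89 ± 0.18, or 3.70-fold, in CPA rats and 1.70 ± 0.18, or 3.26-fold, in SAL rats, with a limma adjusted p of 1.39e-07 and 2.74e-07. Of the 217 tested miRNAs, 3 had a larger difference than miR-497-5p in CPA rats and 6 in SAL rats. For miR-195-5p the numbers were 8 and 10.

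miR-15b-5p had 10.32, 10.87, 10.47, 10.17 and 10.65 in CPA round spermatids, against 9.96, 10.08, 9.48, 9.68 and 9.48 in CPA pachytene spermatocytes. In SAL rats it had 10.79, 10.14, 10.63, 10.11 and 10.56 in round spermatids, against 10.05, 10.18, 9.58, 9.64 and 9.71 in pachytene spermatocytes. The cell types did not overlap in CPA rats, while in SAL rats the round spermatids of rats 16 and 25 lay below the highest pachytene array, that of rat 16. The difference was 0.76 ± 0.17, or 1.69-fold, in CPA rats (limma adjusted p = 0.00121) and 0.61 ± 0.17, or 1.53-fold, in SAL rats (limma adjusted p = 0.00623).

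Its cluster mate miR-16-5p had 11.56, 11.95, 11.57, 11.36 and 11.67 in CPA round spermatids, against 11.23, 11.38, 10.93, 11.08 and 10.92 in CPA pachytene spermatocytes. The values in SAL rats were 11.84, 11.23, 11.64, 11.28 and 11.63 in round spermatids, against 11.23, 11.37, 10.97, 11.04 and 11.03 in pachytene spermatocytes. The cell types overlapped under both treatments. The difference was 0.51 ± 0.13, or 1.42-fold, in CPA rats (limma adjusted p = 0.00334) and 0.40 ± 0.13, or 1.32-fold, in SAL rats (limma adjusted p = 0.0181). Without the SAL round spermatid array of rat 15 the SAL difference was 0.32, with a limma adjusted p of 0.0545.

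**Figure D1:**
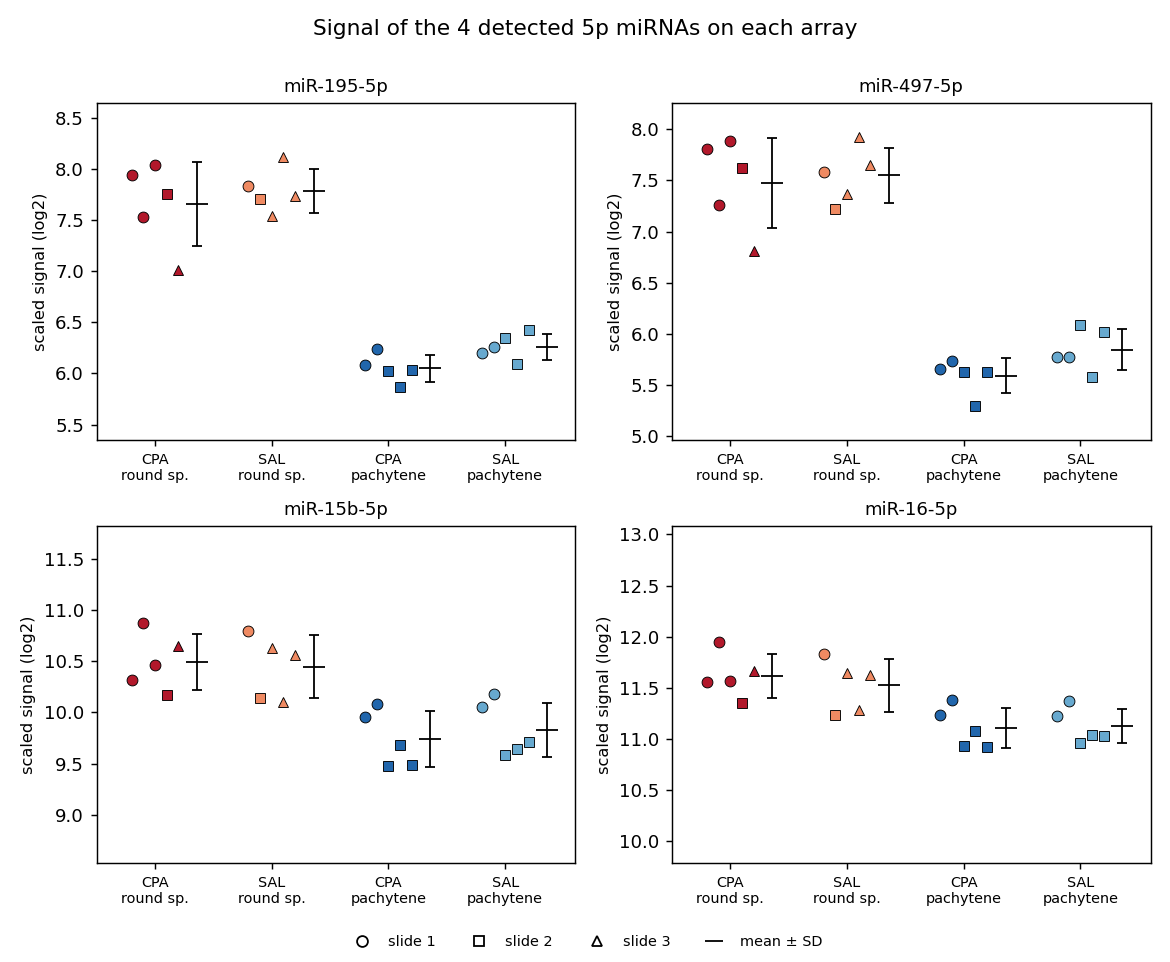
The scaled signal (log2) of the 4 members of the 5p arm is drawn for each array, with a panel for each miRNA of the same height in log2 units, the groups along the x axis, the marker shape giving the slide, and the bar the mean ± SD of 5 arrays. Round spermatids lie wholly above pachytene spermatocytes for miR-195-5p and miR-497-5p, while the cell types overlap for miR-16-5p.

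Passenger strands gave little signal. The brightest of 4 probes for miR-15b-3p stood at the floor on 15 of 20 arrays and reached at most 3.76, and the other 3 stood at the floor on all 20. The scanner software called it detected on 3 CPA and 4 SAL round spermatid arrays, and on 5 CPA and 5 SAL pachytene arrays. Its differences, 0.0015 in CPA rats and 0.02 in SAL rats, were not called, and values at the floor have no order. The other arms miR-16-3p, miR-195-3p and miR-497-3p were detected on 0 of 20 arrays.

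In all, 4 of the 5 members were called higher in round spermatids in CPA rats and 4 in SAL rats. Of all 217 tested miRNAs, 29.0% were called higher in CPA rats and 25.8% in SAL rats, and 51.2% and 47.9% were called in either direction. Round spermatids did not overlap pachytene spermatocytes for 3 members in CPA rats and 2 in SAL rats, against 19.8% and 18.0% of all tested miRNAs that lay higher without overlap. The median difference of all tested miRNAs was 0.05 in CPA rats and 0.02 in SAL rats, and all 4 members of the 5p arm lay above it under the main scaling.

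**Figure D2:**
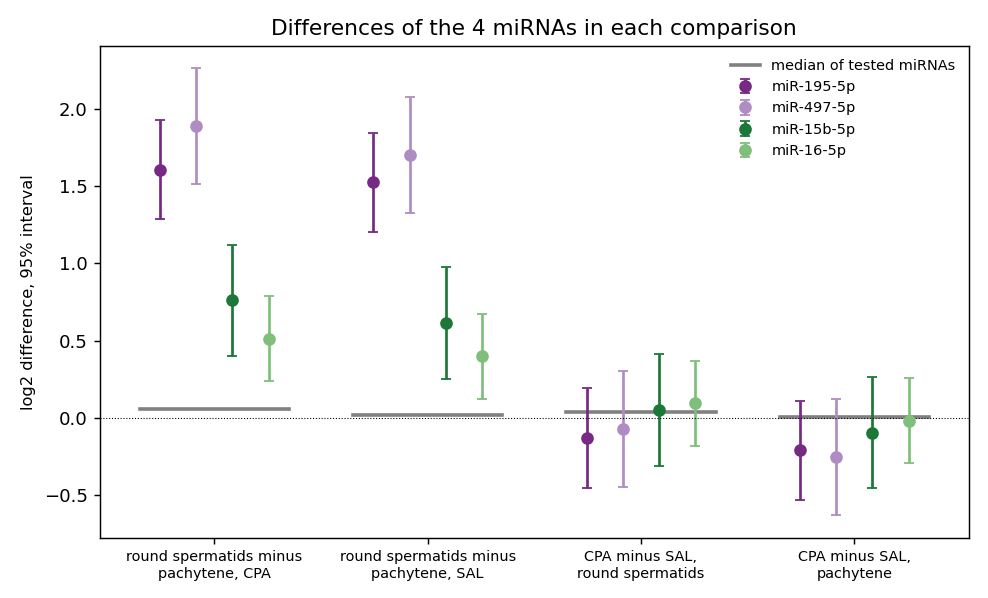
The log2 difference of each member of the 5p arm is drawn with its 95% interval from limma for the cell type comparison in CPA and SAL rats and for CPA against SAL in each cell type, with grey lines at the median of the 217 tested miRNAs. The cell type differences of miR-195-5p and miR-497-5p lie between 1.52 and 1.89, those of miR-15b-5p and miR-16-5p between 0.40 and 0.76 (under spike-in, quantile or no scaling some of these change sign), and all 8 intervals of the drug comparisons include 0.

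The levels of the clusters were also compared within each array. For each array the mean of miR-195-5p and miR-497-5p was set against that of miR-15b-5p and miR-16-5p, after each miRNA was centred on its own mean, so that the scaling of the array drops out. This score averaged 0.47 ± 0.59 (SD, n = 5) in CPA round spermatids and -0.64 ± 0.21 in CPA pachytene spermatocytes. It averaged 0.64 ± 0.40 in SAL round spermatids and -0.47 ± 0.31 in SAL pachytene spermatocytes. The second cluster thus gained on the first by 1.11 ± 0.28 (log2, SE) in CPA rats and 1.11 ± 0.23 in SAL rats, which is 2.16-fold each time.

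The array values were 0.90, -0.06, 0.90, 0.88 and -0.29 in CPA round spermatids, against -0.76, -0.78, -0.42, -0.84 and -0.41 in CPA pachytene spermatocytes. In SAL rats they were 0.35, 0.74, 0.27, 1.29 and 0.56 in round spermatids, against -0.69, -0.80, -0.10, -0.54 and -0.19 in pachytene spermatocytes. Within each treatment the cell types did not overlap. The CPA round spermatids of rats 15 and 26 were the lowest of the round spermatids and lay below 0. No p-value is given, because the score is made of members chosen for this comparison.

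**Figure D3:**
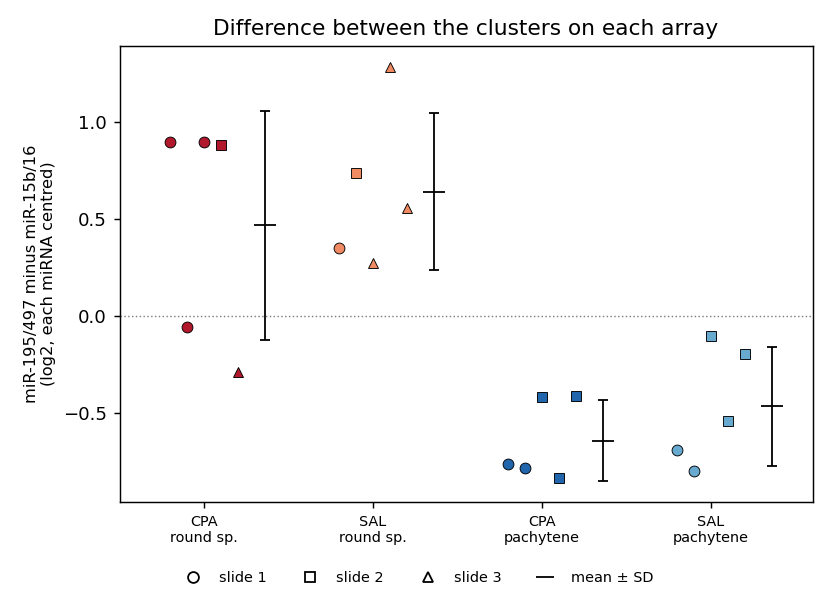
The y axis gives, for each array, the mean of miR-195-5p and miR-497-5p minus that of miR-15b-5p and miR-16-5p (log2, each miRNA centred), by group along the x axis, with the slide as marker shape and the mean ± SD of 5 arrays as bar. CPA round spermatids spread from -0.29 to 0.90 and SAL round spermatids from 0.27 to 1.29, above the pachytene spermatocytes of the same treatment.

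The members of a cluster also varied together from array to array inside the groups. Across the 20 arrays, the deviations from group means correlated at r = 0.943 between miR-195-5p and miR-497-5p and at r = 0.979 between miR-15b-5p and miR-16-5p. Between the clusters r lay between -0.26 and -0.19. These are descriptions over arrays that share slides, scaling and RNA input. For miR-16-5p and miR-195-5p, whose mature sequences are nearly alike, the deviations correlated at -0.19. Whether the probes of either also take up the other was not tested.

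The tested miRNAs outside the family whose deviations were most like those of miR-195-5p over the 20 arrays were miR-10b-5p (r = 0.919), miR-24-3p (r = 0.899) and miR-152-3p (r = 0.889). Those most like miR-497-5p were miR-10b-5p (r = 0.890), miR-24-3p (r = 0.881) and miR-27a-3p (r = 0.837). The cell type differences of these 4 miRNAs were 1.53, 1.43, 1.18 and 1.43 in CPA rats and 1.55, 1.40, 1.26 and 1.22 in SAL rats, in the order miR-10b-5p, miR-24-3p, miR-152-3p and miR-27a-3p. All were called in both treatments.

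For miR-15b-5p the nearest were miR-3580-3p (r = 0.970), miR-34c-5p (r = 0.953) and miR-449a-5p (r = 0.926). For miR-16-5p they were miR-34c-5p (r = 0.964), miR-3580-3p (r = 0.954) and miR-34b-5p (r = 0.932). miR-34b-5p, miR-34c-5p and miR-449a-5p belong to a family known to be abundant in meiotic and later germ cells. Their cell type differences were 0.85, 0.73 and -0.02 in CPA rats and 0.63, 0.47 and -0.26 in SAL rats, of which the first and second were called in CPA rats and the first in SAL rats. For miR-15b-3p, mostly at the floor, the nearest were miR-664-3p (r = 0.688), miR-139-3p (r = 0.623) and miR-129-2-3p (r = 0.590).

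Under the main scaling, most tested endothelial, muscle and mesenchymal markers were higher in round spermatids, as miR-195-5p and miR-497-5p were. All counts and values of listed markers, here and below, are from that scaling. Scaled to spike-ins, 4 of all 217 tested miRNAs were called higher in SAL round spermatids and 157 lower. Of 12 miRNAs listed as markers of endothelial, muscle and mesenchymal cells, 8 were tested. In round spermatids against pachytene spermatocytes, 6 were higher and 1 lower in CPA rats, and 6 were higher and 0 lower in SAL rats, with a median difference of 1.63 in CPA rats and 1.61 in SAL rats. miR-143-3p and miR-145-5p, which mark smooth muscle and fibroblasts, differed by 2.0 and 1.75 in CPA rats and by 1.81 and 1.87 in SAL rats, and all 4 of these differences were called. The endothelial miR-126a-3p went the other way, by -0.83 in CPA rats (limma adjusted p = 0.0351) and -0.73 in SAL rats (limma adjusted p = 0.0636).

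The summed signal of the 12 markers lay between 11.0 and 11.9 (log2) in CPA round spermatids and between 9.32 and 10.1 in CPA pachytene spermatocytes. It lay between 11.3 and 11.9 in SAL round spermatids and between 9.61 and 10.6 in SAL pachytene spermatocytes. Signals were summed before log2 was taken, so the sum mostly follows its brightest marker, miR-143-3p. In CPA round spermatids the sum averaged 11.49 and miR-143-3p 11.20. In CPA pachytene spermatocytes they averaged 9.79 and 9.20. The means of miR-126a-3p in these groups were 5.81 and 6.64. miR-126a-3p, miR-143-3p, miR-145-5p, miR-199a-3p, miR-199a-5p and miR-214-3p were detected on all 20 arrays, and the striated muscle markers miR-1-3p, miR-133a-3p and miR-206-3p on 2 of 20 each. The striated muscle markers miR-133b-3p and miR-499-5p were detected on 18 and 15 of 20. miR-133b-3p was higher in round spermatids, by 1.5 in CPA rats (limma adjusted p = 2.03e-07) and by 1.58 in SAL rats (limma adjusted p = 1.86e-07). Its pachytene means, 3.61 in CPA and 3.66 in SAL rats, stood at or near the floor, so the size of these differences rests on the floor. The CPA round spermatid arrays with the lowest sums, those of rat 26 at 11.0 and rat 15 at 11.1, were also the lowest for miR-195-5p and miR-497-5p in their group. Within groups, the deviations of the summed markers and of the mean of miR-195-5p and miR-497-5p correlated at r = 0.760 over the 20 arrays, and those of the mean of miR-15b-5p and miR-16-5p at r = -0.445. The part of these cells in the differences of miR-195-5p and miR-497-5p was not tested.

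**Figure D4:**
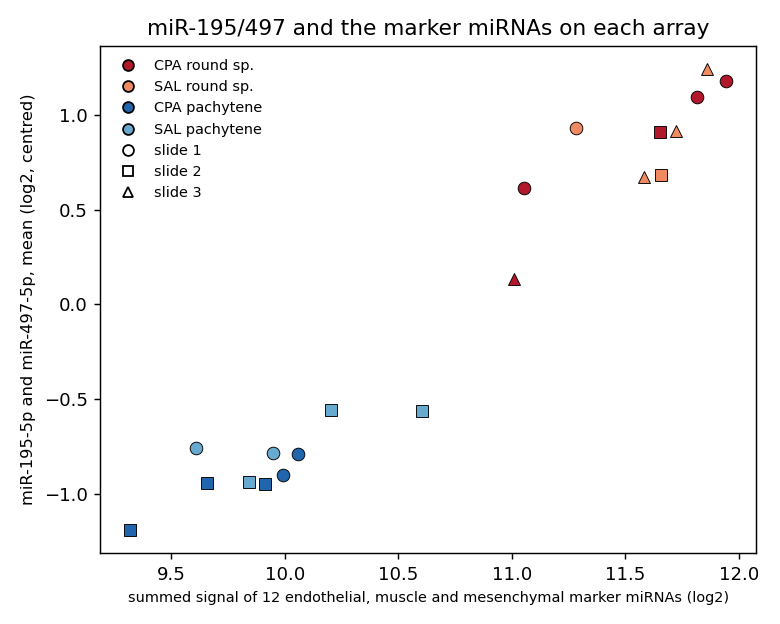
Each point is 1 array, with the summed signal of the 12 endothelial, muscle and mesenchymal marker miRNAs (log2) on the x axis and the mean of miR-195-5p and miR-497-5p (log2, centred) on the y axis, coloured by group and shaped by slide. Under the main scaling both measures are higher in round spermatids, and the CPA round spermatid arrays of rats 15 and 26 are the lowest of their group on both.

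Of the 7 blood and immune markers listed, 6 were on the array and 3 were tested. In the cell type comparison, 2 were higher in CPA rats and 1 in SAL rats, and 0 were lower in either. miR-223-3p, a myeloid miRNA, differed by 1.96 in CPA rats and 2.15 in SAL rats. miR-142-3p differed by 0.76 in CPA rats, which was called, and by 0.53 in SAL rats, which was not. miR-150-5p went the other way, by -0.39 in CPA rats and -0.25 in SAL rats, and was called in neither. The erythroid miR-144-3p was detected on no array. The sums of these markers were 7.42 to 7.87 (log2) in CPA round spermatids and 6.65 to 7.16 in CPA pachytene spermatocytes, and 7.50 to 7.93 in SAL round spermatids and 6.91 to 7.19 in SAL pachytene spermatocytes. Their deviations correlated with those of the mean of miR-195-5p and miR-497-5p at r = 0.0986 and with those of the mean of miR-15b-5p and miR-16-5p at r = 0.461, and their part in the members' differences was not tested.

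The other marker lists held calls in both directions or few calls. Of 3 tested Sertoli and gonadal somatic markers, 1 was higher and 1 lower in either treatment, among them miR-202-3p, which fell by 1.54 in CPA rats and by 1.76 in SAL rats. Of 4 spermatogonial markers, 1 was higher and 2 lower in CPA rats, and 1 was higher and 3 lower in SAL rats. Among the 3 germ cell markers (miR-34b-5p, miR-34c-5p and miR-449a-5p), 2 were higher in CPA rats and 1 in SAL rats, and their summed deviations correlated with those of the mean of miR-15b-5p and miR-16-5p at r = 0.947 over the 20 arrays.

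The X-linked miR-322-5p has the same seed as the 4 members of the 5p arm. It averaged 4.69 ± 0.19 (SD, n = 5) in CPA round spermatids and 5.04 ± 0.19 in CPA pachytene spermatocytes, and 4.93 ± 0.37 in SAL round spermatids and 5.04 ± 0.24 in SAL pachytene spermatocytes. The differences of -0.35 (limma adjusted p = 0.0771) and -0.11 (limma adjusted p = 0.593) were not called. Its neighbour miR-503-5p was detected on 1 of 20 arrays and stood at the floor on all of them.

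Under the main scaling, other miRNAs with a known part in the cell cycle were called in both directions. Of all 217 tested miRNAs, 29.0% were called higher and 22.1% lower in CPA rats, and 25.8% and 22.1% in SAL rats. Of 17 tested miRNAs known to restrain the cell cycle, 5 were higher and 4 lower in round spermatids of CPA rats, and 3 were higher and 3 lower in those of SAL rats. The list also holds these 3 germ cell miRNAs and miR-322-5p. Its medians, 0.04 and 0.03, lay near those of all tested miRNAs. Of 13 tested miRNAs known to promote the cell cycle, 3 were higher and 5 lower in CPA rats, and 1 was higher and 8 lower in SAL rats. Their medians were -0.22 and -0.37, beside 0.05 and 0.02 over all tested miRNAs. Among the 13, miR-19b-3p was higher by 0.51 in CPA rats and 0.41 in SAL rats. miR-20a-5p of the same cluster had -0.22 (limma adjusted p = 0.143) in CPA rats and fell by 0.41 in SAL rats.

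No member was called as changed by cyclophosphamide. In CPA against SAL round spermatids, 0 of 5 members and 0% of the 217 tested miRNAs were called by limma, and 4 of the 217 had an unadjusted p below 0.05. In pachytene spermatocytes, likewise, limma called 0 of 5 members and 0% of the tested miRNAs, and 1 miRNA had an unadjusted p below 0.05.

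In round spermatids, miR-195-5p averaged 7.65 ± 0.41 in CPA rats and 7.79 ± 0.21 in SAL rats (SD, n = 5 each), a difference of -0.13 with a 95% interval of -0.45 to 0.19. For miR-497-5p the means were 7.48 ± 0.44 in CPA rats and 7.55 ± 0.27 in SAL rats, and the interval of the difference was -0.45 to 0.30. The intervals were -0.31 to 0.41 for miR-15b-5p and -0.18 to 0.37 for miR-16-5p. Without the CPA array of rat 26 the difference of miR-195-5p was 0.03, so its sign rested on that array.

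In pachytene spermatocytes, miR-195-5p averaged 6.05 ± 0.13 in CPA rats and 6.26 ± 0.13 in SAL rats, a difference of -0.21 with a 95% interval of -0.53 to 0.11. miR-497-5p averaged 5.59 ± 0.17 in CPA rats and 5.85 ± 0.20 in SAL rats, a difference of -0.26 with an interval of -0.63 to 0.12. Both lay toward the low end of the tested miRNAs, with 206 and 212 of the 217 showing a higher difference, and the CPA and SAL arrays overlapped for both. The difference of miR-195-5p was larger than the SD of either group. It was -0.31 ± 0.11 (SE) within slide 2 and -0.26 ± 0.099 with array weights, its sign turned after normexp background correction (0.12), and its limma adjusted p over the alternatives lay between 0.40 and 1. The summed endothelial, muscle and mesenchymal markers moved the same way, averaging 9.79 ± 0.30 in CPA and 10.04 ± 0.38 in SAL pachytene spermatocytes (SD, n = 5 each), a difference of -0.25 with overlapping arrays, and their part in the differences of miR-195-5p and miR-497-5p was not tested. miR-15b-5p and miR-16-5p differed by -0.10 and -0.02, with intervals of -0.46 to 0.27 and -0.29 to 0.26.

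The difference of the drug's effect between the cell types was tested as an interaction term, in which limma called 0 of 5 members and 0% of the tested miRNAs, and 1 miRNA had an unadjusted p below 0.05. Its values for the 4 members of the 5p arm lay between 0.08 and 0.18, each with a limma adjusted p of 1. The score of the second cluster over the first differed by -0.17 ± 0.32 (log2, SE) between CPA and SAL round spermatids and by -0.18 ± 0.17 between CPA and SAL pachytene spermatocytes, and the treatments overlapped in both. Taken alone, the mean of miR-195-5p and miR-497-5p differed by -0.10 ± 0.22 in round spermatids and by -0.23 ± 0.098 in pachytene spermatocytes, where its SD was 0.15 in CPA and 0.16 in SAL rats. The mean of miR-15b-5p and miR-16-5p differed by 0.07 ± 0.17 and -0.06 ± 0.14. CPA and SAL arrays overlapped in all 4 of these comparisons.

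Levels of miR-15b-5p and miR-16-5p also differed between slides within a group. miR-15b-5p in CPA pachytene spermatocytes was 9.96 and 10.08 on slide 1 and 9.48 to 9.68 on slide 2, and in SAL pachytene spermatocytes 10.05 and 10.18 on slide 1 and 9.58 to 9.71 on slide 2. For miR-16-5p the slides did not overlap in either pachytene group. In CPA pachytene spermatocytes the slides did not overlap for miR-195-5p either, at 6.08 and 6.24 on slide 1 and 5.87 to 6.03 on slide 2, nor for miR-497-5p, at 5.66 and 5.74 on slide 1 and 5.29 to 5.63 on slide 2. In SAL pachytene spermatocytes they overlapped for both.

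With slide as a block the cell type differences in CPA rats were 1.63, 1.89, 0.60 and 0.40 for miR-195-5p, miR-497-5p, miR-15b-5p and miR-16-5p, and in SAL rats 1.69, 1.80, 0.50 and 0.33, all of them called. Within slide 1, miR-195-5p and miR-497-5p differed by 1.67 and 1.95 in CPA rats and by 1.60 and 1.81 in SAL rats. Within slide 2, they differed by 1.78 and 2.11 in CPA rats and by 1.42 and 1.33 in SAL rats, and all 8 of these within-slide differences were called. Of these, 6 rest on an arm of 1 array, since slide 1 held 1 SAL round spermatid array and slide 2 held 1 round spermatid array of each treatment, whose spread was taken to equal that of the other groups. miR-15b-5p had 0.53 and 0.68 within slide 1 and 0.63 and 0.49 within slide 2, in CPA and SAL rats, and only the slide 2 values were called. For miR-16-5p the values were 0.39 and 0.54 within slide 1 and 0.38 and 0.22 within slide 2, of which the CPA value of slide 2 was called. These slide 2 values rest on 1 round spermatid array each.

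The drug differences within slides were called for no member. In CPA against SAL round spermatids, miR-195-5p had 0.002, 0.06 and -0.79 within slides 1, 2 and 3, and miR-497-5p had 0.07, 0.40 and -0.84, where each slide had 1 array in at least 1 arm and slide 3 held rat 26 as its CPA array. In pachytene spermatocytes miR-195-5p had -0.07 and -0.31 and miR-497-5p had -0.08 and -0.38 within slides 1 and 2. With slide as a block the drug differences in round spermatids were -0.27 for miR-195-5p and -0.17 for miR-497-5p, and neither was called.

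Each member of the 5p arm had 2 probes, and the one with the brighter mean was used above. The other probe gave cell type differences of 1.67 for miR-195-5p, 1.78 for miR-497-5p, 0.54 for miR-15b-5p and 0.33 for miR-16-5p in CPA rats. In SAL rats it gave 1.76, 1.79, 0.56 and 0.29. The order of the clusters was the same with either probe.

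The size of each difference, and for miR-15b-5p and miR-16-5p its sign, depended on how arrays were scaled. Scaled to the spike-ins added at labelling, the median of all tested miRNAs was -0.51 in CPA rats and -1.02 in SAL rats. On that scale miR-195-5p and miR-497-5p had 0.89 and 1.17 in CPA rats, both called, and 0.31 and 0.49 in SAL rats, not called. miR-15b-5p and miR-16-5p had 0.05 and -0.20 in CPA rats, not called, and -0.60 and -0.81 in SAL rats, of which the last was called lower (limma adjusted p = 0.0147). All 4 lay above the median of all tested miRNAs on that scale in both treatments, by 0.21 or more.

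With no scaling miR-195-5p and miR-497-5p were called at 1.20 and 1.48 in CPA rats and 1.05 and 1.23 in SAL rats, beside medians of -0.23 and -0.37 over all tested miRNAs. miR-15b-5p and miR-16-5p were then not called, at 0.35 and 0.11 in CPA rats and 0.14 and -0.08 in SAL rats. After quantile normalization miR-16-5p had -0.08 and -0.16 and was not called. After normexp background correction miR-15b-5p and miR-16-5p had 0.79 and 0.59 in CPA rats, close to the 0.91 and 0.97 of miR-195-5p and miR-497-5p, and the gain of the second cluster over the first was 0.25 in CPA rats and 0.84 in SAL rats. These gains were the smallest among the alternatives run. Normexp here added an offset of 50 to the signals, which by arithmetic narrows log2 differences more at low than at high signal. In pachytene spermatocytes, miR-195-5p and miR-497-5p averaged 5.59 to 6.26 under the main scaling, and miR-15b-5p and miR-16-5p averaged 9.74 to 11.1. The part of the offset in these values was not tested. The median of all tested miRNAs under normexp was -0.04 in CPA rats and 0.44 in SAL rats, so that in SAL rats miR-15b-5p, at 0.44, lay at the median and miR-16-5p, at 0.21, below it. Scaled to all probes, the median was -0.07 in CPA rats and -0.15 in SAL rats.

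**Figure D5:**
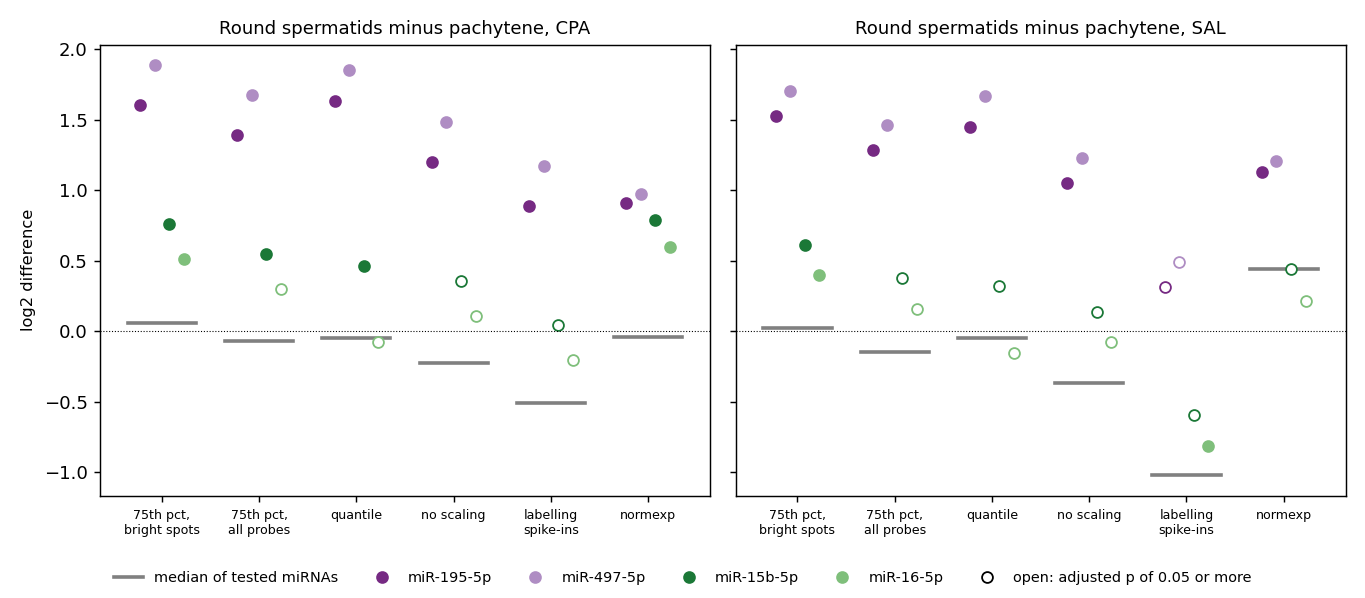
The log2 difference between round spermatids and pachytene spermatocytes is drawn for the 4 members of the 5p arm under 6 ways of scaling or background correction, in CPA rats on the left and SAL rats on the right, with grey lines at the median of the 217 tested miRNAs and open points where the limma adjusted p was 0.05 or more. miR-195-5p and miR-497-5p are above 0 throughout, from 0.31 to 1.89, while miR-15b-5p and miR-16-5p run from -0.81 to 0.79.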

How the data were processed

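miRNAs were measured on 20 Agilent 1-colour arrays (Cy3, 100 ng of total RNA). The scanner files deposited give intensity values per spot made with Agilent Feature Extraction 11.5.1.1, background-subtracted and not scaled between arrays, per the file headers and the submitters' processing notes. The authors' deposited value table holds log2 values, whose normalization is not given in the sources used here and whose scale was inferred from the numbers. It served as an alternative for miRNAs whose row and scanner values had r over 0.5, which left out miR-16-5p (r = -0.301) and miR-15b-3p (r = 0.364).

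Each array was scaled to the 75th percentile of its processed signals over 2176 spots that were well above background on every array, signals under a floor of 12.2 were set to it, and log2 was taken (floor 3.61). Controls and outlier spots (379 to 635 per array) were dropped, spots of a probe were averaged, and the brightest probe stood for a miRNA. The CPA round spermatid file of rat 14 is rounded to 3 significant digits. limma 3.58.1 (R 4.3.3) fitted 4 group means to the 217 miRNAs detected on every array of some group, with a Benjamini-Hochberg threshold of 0.05. On simulated data for round against pachytene cells of SAL rats, with 40 of 217 miRNAs changed, 50% of changes of 0.5 (log2), 97.5% of 1.0 and 100% of 1.5 were recovered. The simulated errors were independent, with no slide effect, and more miRNAs, 104, were called in the data of SAL rats. These shares therefore do not measure the power in the data, nor that of the drug comparisons. The number of arrays limits the precision. Alternatives changed the scaling, background correction, floor, filter, probe, slide, replicate block and arrays used. Normexp used the median signals, since the files hold no mean signal, with an offset of 50.

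Named miRNAs are the members, up to the 3 brightest tested of each list, and the 3 nearest to each member. The members and lists were chosen with earlier results of these data known. Rat numbers recur across treatments, where they mark different rats. Whether an equal number in both cell types, or on both CPA pachytene arrays labelled 16, is 1 rat is not settled by the labels.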

Additional observations from a re-analysis of the deposited data

Results flagged for a closer look

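An outlying array was looked for in 20 sets, the 4 members of the 5p arm and the cluster score in each of the 4 groups. The later rat 16 stood apart in 1 of them. Its miR-497-5p level was 5.29 (log2) in CPA pachytene spermatocytes, below the other 4 arrays at 5.63 to 5.74. Its gap to the nearest array was 0.753 of the group's range, where 0.71 is the critical value for 5 arrays. Chance alone flags about 1 in 20 such sets, and these sets are not independent, since the members of a cluster varied together. The same array was lowest of its group for miR-195-5p, at 5.87, and had the lowest summed endothelial, muscle and mesenchymal markers of all arrays, at 9.32.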

How the results depend on the processing

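Across the alternatives, the differences of miR-195-5p and miR-497-5p between round spermatids and pachytene spermatocytes stayed positive, from 0.31 to 2.11, and called except in SAL rats scaled to spike-ins (0.31 and 0.49). The cause of the changes below was not tested unless fewer arrays show it. For miR-15b-5p, calls were lost in CPA rats without scaling (0.35), with spike-ins (0.046), in the authors' table (0.35) and within slide 1 (0.53). In SAL rats its call was lost with all-probe scaling (0.37), quantile normalization (0.32), no scaling (0.14), normexp (0.44), the authors' table (0.20) and within slide 1 (0.68), and the sign turned with spike-ins (-0.60). For miR-16-5p, calls were lost in CPA rats with all-probe scaling (0.30), no scaling (0.11) and within slide 1 (0.39), and the sign turned with quantile normalization (-0.078) and spike-ins (-0.20). In SAL rats its call was lost with all-probe scaling (0.16), normexp (0.21), scan date as a block (0.39), within slides 1 (0.54) and 2 (0.22) and without slide 3 (0.41), and the sign turned with quantile normalization (-0.16), no scaling (-0.077) and spike-ins (-0.81). Leaving out 1 array at a time, differences ranged in CPA rats from 1.51 to 1.77 for miR-195-5p, 1.79 to 2.05 for miR-497-5p, 0.67 to 0.85 for miR-15b-5p and 0.43 to 0.58 for miR-16-5p. In SAL rats the ranges were 1.44 to 1.58, 1.61 to 1.78, 0.53 to 0.70 and 0.32 to 0.47.

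Members called in CPA rats numbered 2 without scaling, with spike-ins, in the authors' table (where 3 were matched) and within slide 1. In SAL rats miR-195-5p and miR-497-5p alone were called without scaling, in the authors' table, within slide 1 and with all-probe scaling, quantile normalization, normexp and the fixed block. With spike-ins the 2 called in SAL rats were miR-15b-3p (-0.53) and miR-16-5p (-0.81), both lower. All miRNAs called in CPA rats, 111 in the main setting, numbered 73 without scaling, 39 with normexp, 56 of 128 in the authors' table and 70 within slide 1. In SAL rats, 104 in the main setting, they numbered 161 with spike-ins, 30 with normexp, 54 of 128 in the authors' table and 54 within slide 1. The share of calls that were higher was 56.8% in CPA and 53.8% in SAL rats, and with all-probe scaling it was 32.5% and 32.7%, with quantile normalization 42.5% and 42.7%, without scaling 30.1% and 23.6%, with spike-ins 15.4% and 2.5%, with the authors' values 41.1% and 37.0%, and by total gene signal 51.4% and 43.8%.

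For the drug, calls over all miRNAs appeared within slide 2 in round spermatids (28) and for the interaction (25), and within slide 3 (1), where a group was 1 array, and no member was among them. Uncalled drug differences of members changed sign by more than their SE. In pachytene spermatocytes they did so with normexp, at 0.12 for miR-195-5p and 0.16 for miR-497-5p. In round spermatids they did so within slide 1, at -0.24 for miR-15b-5p and -0.14 for miR-16-5p. For miR-195-5p the values were 0.062 with spike-ins, 0.056 within slide 2, 0.049 without slide 3, 0.032 with array weights and -0.23 to 0.030 leaving out 1 array. For miR-497-5p they were 0.12 with spike-ins, 0.40 within slide 2 and 0.24 without slide 3. For the interaction they were -0.15 for both miR-15b-5p and miR-16-5p within slide 1, and -0.22 for miR-195-5p and -0.23 for miR-497-5p with normexp. The cluster score moved beyond 1 SD with normexp, to 0.35 for the drug in pachytene spermatocytes and 0.25 for the cell types in CPA rats, within slide 3 to -0.99 for the drug in round spermatids, and with quantile normalization to 1.48 for the cell types in SAL rats. The score was not run on the authors' table, where miR-16-5p was not matched.

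Same-numbered arrays of a treatment correlated in their deviations between -0.289 and 0.206. These are few pairs of different cell types, mostly on different slides, so the values cannot tell whether the numbers pair the samples. With the rat number as a fixed replicate block, which could not be fitted for the drug in pachytene spermatocytes, 72 miRNAs were called in CPA and 63 in SAL rats, and miR-15b-5p (0.44) and miR-16-5p (0.26) were not called in SAL rats. The block changed no other call of a member, in its fixed or its random form. For the drug and the interaction, the fixed block joined CPA and SAL rats that share a number but are different rats. It therefore cannot bear on those comparisons. Low signal limits miR-15b-3p, which was at the floor on 15 of 20 arrays.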
